A study of Mus musculus with 4 samples.

Results

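Among CD4 T cells recovered from mouse spleen, 431 cells carried the Vβ3 receptor chain (gene TRBV26) and at least 1 UMI (unique molecular identifier, 1 captured mRNA molecule) of Foxp3, out of 12325 kept cells. They were set against the 1634 Foxp3-positive cells whose receptor β chain used another V gene. Members were chosen by measured values: cells entered with 500 or more genes, no more than 10% of UMIs from mitochondrial genes, 1 TRB contig and up to 2 TRA contigs, and were then selected on their TRB V gene and on 1 or more Foxp3 UMIs. The levels of Foxp3 and of V segments are therefore given as a description, with no test.

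The study concerns the deletion of Vβ3 CD4 T cells by the endogenous mouse mammary tumour virus 3 and its bearing on type 1 diabetes. Column-purified splenic CD4 T cells, 5000000 in number, of 2 B6.H2g7 donors (strain label B6.NOD-(D17Mit21-D17Mit10)/LtJ, age label 6 to 8 weeks) were transferred to 2 NOD.Rag1null hosts. On day 14 live cells stained for CD4 and TCRβ were sorted from each host's spleen, mouse 1 and mouse 2, and each gave 1 expression library and 1 receptor library by the 10x 5′ method. Both classes of cells came from the same hosts and shared every treatment, and the labels do not say whether the donors' cells were pooled or whether the cell number is per host.

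Regulatory T (Treg) cells are CD4 T cells that restrain immune responses, and Foxp3 is their lineage-defining transcription factor. Their cardinal surface molecules include the high-affinity IL-2 receptor chain CD25 (Il2ra) and the inhibitory receptor CTLA-4 (Ctla4), and Treg cells that have met antigen in tissue or under stimulation gain effector molecules such as ICOS and KLRG1. A superantigen of the mouse mammary tumour virus type binds MHC class II outside the peptide groove and engages T cells through particular Vβ segments, so it can address all cells that share a Vβ irrespective of the rest of their receptor. Rag1-deficient hosts have no T or B cells of their own, while their myeloid and dendritic cells remain.

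Mouse 1 contributed 177 and mouse 2 254 Vβ3 Foxp3-positive cells, against 742 and 892 other Foxp3-positive cells. The sums held 1439865 and 2293934 UMIs for Vβ3 and 5706352 and 6855876 UMIs for the other class. Median UMIs per cell were higher in the Vβ3 class, at 6960 and 7674 against 6161.5 and 6273, and a draw of other cells at matched Foxp3 UMIs and depth is among the alternatives. In all, 166 barcodes occurred in both mice, 58 of them among kept cells and 1 among Foxp3-positive cells.

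The receptor sequences that defined the class were diverse. The Vβ3 Foxp3-positive cells fell into 108 clonotypes in mouse 1 and 165 in mouse 2, against 478 and 584 for the other Foxp3-positive cells, where cells of 1 mouse with identical V gene, J gene and CDR3 bases of the β chain form a clonotype. Trbv26 lies on chromosome 6 of the GRCm38 build at chr6:41227505-41227993, plus strand. The CDR3 coding sequences of the 2 clonotypes of each mouse with the most Foxp3-positive cells are shown. They run from the codon of the conserved cysteine to that of the conserved phenylalanine. Capitals mark the bases between these codons, where V, D and J segments and added bases meet.
mouse 1, TRBJ1-4: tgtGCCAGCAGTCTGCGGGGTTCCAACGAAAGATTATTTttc
mouse 1, TRBJ2-4: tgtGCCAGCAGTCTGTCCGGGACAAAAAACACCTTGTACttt
mouse 2, TRBJ2-2: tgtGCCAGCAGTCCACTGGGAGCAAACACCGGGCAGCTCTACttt
mouse 2, TRBJ1-1: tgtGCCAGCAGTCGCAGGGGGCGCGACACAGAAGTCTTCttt

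These 4 clonotypes were picked by their number of Foxp3-positive cells, so their shares of such cells do not stand for other clonotypes. In mouse 1 a Foxp3 UMI was found in 18 of 20 cells and 18 of 19 cells. In mouse 2 these numbers were 12 of 13 and 11 of 11 cells. Each had 1 dominant partner chain, TRAV7D-4 with TRAJ28 in 17 of the 18 Foxp3-positive cells of the first, TRAV10 with TRAJ49 in 18 of 18 of the second, TRAV7D-3 with TRAJ4 in 12 of 12 and TRAV12-1 with TRAJ42 in 11 of 11. The largest clonotype held 10.2% of the Vβ3 Foxp3-positive cells of mouse 1 and 4.72% of those of mouse 2, against 2.70% and 1.68% of the other Foxp3-positive cells. The share of cells in clonotypes with 2 or more Foxp3-positive cells was close in both classes, at 50.3% and 51.2% against 51.1% and 51.7%.

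Within a clonotype, Foxp3-positive and Foxp3-negative cells could occur together. In the Vβ3 class 35.03% (95% exact Clopper-Pearson interval 28.0 to 42.5) and 16.9% (12.5 to 22.1) of Foxp3-positive cells had Foxp3-negative cells of their clonotype in the same mouse, against 21.97% (19.0 to 25.1) and 11.996% (9.94 to 14.3) in the other class. The intervals cover counting error only and treat cells of a clonotype as independent. They overlapped between the classes in mouse 2 and did not in mouse 1. Clonotypes with a Foxp3-positive cell and 2 or more cells were also counted. Of these, 41.7% (25.5 to 59.2) and 68.6% (54.1 to 80.9) in the Vβ3 class held only Foxp3-positive cells. The shares in the other class were 56.7% (48.6 to 64.6) and 72.4% (65.4 to 78.7), with overlapping intervals in both mice. A Foxp3-negative cell is one in which no Foxp3 UMI was captured. With a median of 4 Foxp3 UMIs per Vβ3 Foxp3-positive cell, some expressing cells may fall on that side. Both kinds of share also depend on the number of cells per clonotype, and clonotypes were not matched for it.

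Between the mice 6 Vβ3 Foxp3-positive CDR3 amino acid sequences with the same J gene were shared, 5.56% of those in mouse 1 and 3.64% of those in mouse 2. Of the 6, 5 were identical in every base, and 3 of these 5 also had a TRA CDR3 of identical bases in both mice. Among Vβ3 Foxp3-negative cells 105 amino acid sequences were shared, 8.02% and 8.48%, and 21 nucleotide sequences were identical, 3 of them with an identical TRA CDR3. Among the other Foxp3-positive cells 22 were shared, 18 nucleotide sequences were identical and 15 of these had an identical TRA CDR3. No shared nucleotide clonotype of these 3 sets had a cell barcode in common. Whether both hosts received cells of the same donor clones was not tested, and the hosts may not be independent sources of cells. The pair that differed is shown with its 2 differing bases in capitals, next to an identical pair that used the same J gene.
mouse 1, TRBJ1-3: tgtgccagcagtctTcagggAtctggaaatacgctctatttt
mouse 2, TRBJ1-3: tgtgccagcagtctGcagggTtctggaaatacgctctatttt
mouse 1 and mouse 2, TRBJ1-3: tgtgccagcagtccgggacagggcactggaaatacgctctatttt

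The CDR3 of Vβ3 Foxp3-positive clonotypes averaged 13.6 and 13.7 codons in the 2 mice, with SDs over clonotypes of 1.17 and 1.11. Other Foxp3-positive clonotypes averaged 14.1 and 14.0 codons, and Vβ3 Foxp3-negative clonotypes 13.9 in both mice, so the Vβ3 Foxp3-positive set had the lowest mean of the 3 in each mouse. TRBJ2-7 was used by 18.5% (11.7 to 27.1) and 13.3% (8.55 to 19.5) of Vβ3 Foxp3-positive clonotypes, against 12.97% and 17.6% of other Foxp3-positive clonotypes and 11.8% and 9.79% of Vβ3 Foxp3-negative clonotypes. The TRAV7 family was their most frequent Vα family, in 25.2% (17.3 to 34.6) of clonotypes with an α chain in mouse 1 and 20.7% in mouse 2. It was carried by 14.1% and 15.9% of other Foxp3-positive clonotypes and by 22.2% and 22.7% of Vβ3 Foxp3-negative clonotypes. For both segments the interval of the Vβ3 Foxp3-positive set overlapped those of the other sets named here in each mouse. In mouse 1 the Vβ3 and other Foxp3-positive sets did not overlap for TRBJ2-5, at 5.56% (2.07 to 11.7) against 16.1% (12.9 to 19.7). In mouse 2 they did not overlap for TRBJ1-2, at 9.70% (5.64 to 15.3) against 3.08% (1.84 to 4.83). Each of these J genes overlapped in the other mouse. No test was run on these shares.

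Foxp3 was detected in fewer Vβ3 cells than other cells in both mice. In mouse 1, 177 of 2084 Vβ3 cells had a Foxp3 UMI, 8.49% (7.33 to 9.77), and in mouse 2, 254 of 1960, 12.96% (11.5 to 14.5). The shares among other cells were 18.98% (17.8 to 20.2) in mouse 1 and 20.4% (19.2 to 21.6) in mouse 2. After each cell was thinned to 3000 UMIs, which left out shallower cells, the shares were 7.45% and 9.80% against 15.4% and 17.3%. Counted as clonotypes with at least 1 Foxp3-positive cell, the shares were 7.47% and 11.6% for Vβ3 against 27.8% and 30.9%. Such a share depends on the cells per clonotype, which differed between the classes. In mouse 1, 2084 Vβ3 cells formed 1446 clonotypes and 3909 other cells formed 1720. In mouse 2, 1960 Vβ3 cells formed 1426 and 4372 other cells formed 1890. None of the 5 and 3 barcodes with macrophage transcripts and no receptor contig had a Foxp3 UMI, at median depths of 1092 and 895 UMIs against 5411.5 and 6261.5 UMIs in Vβ3 cells, so these few barcodes set no usable background.

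Among the 12 V genes that reached 100 cells in both mice, TRBV26 had rank 3 from the lowest in mouse 1 and rank 5 in mouse 2 for the share with a Foxp3 UMI. TRBV23 (Vβ20) lay beside it, with 83 of 959 and 87 of 725 cells, while TRBV5 reached 50.8% and 24.5%. TRBV31 differed between the mice, with 3.98% in mouse 1 and 21.8% in mouse 2. The low share of Vβ3 cells was thus within the range of single V genes.

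**Figure D1:**
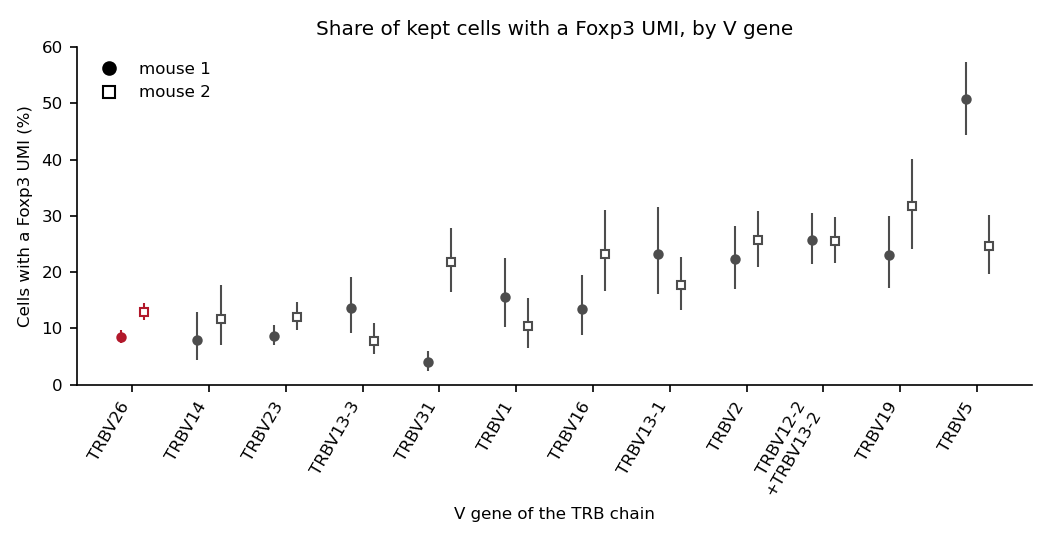
Percentage of kept cells with a Foxp3 UMI for each TRB V gene (x axis), in mouse 1 (filled circles) and mouse 2 (open squares), with exact 95% binomial intervals; TRBV26 is red. TRBV26 sits at 8.49% and 12.96%, next to TRBV23 and below TRBV5 at 50.8% and 24.5%.

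Other Treg genes were also higher in Foxp3-positive cells, in both classes. Of the 15 Treg core genes, Foxp3 not among them, 14 were higher in Foxp3-positive than Foxp3-negative cells within the Vβ3 class and 14 within the other class (edgeR quasi-likelihood test, adjusted p under 0.05), where 15.5% and 18.7% of all 12290 tested genes were called higher. Il2ra stood at 131 and 167 CPM (counts per 1000000 UMIs of the sum) in Vβ3 Foxp3-positive cells, against 4.99 and 4.35 in Vβ3 Foxp3-negative cells. It was detected in 41.8% and 48.8% of the Foxp3-positive cells against 1.94% and 1.88% of the Foxp3-negative cells of the Vβ3 class. Itgae, the αE integrin CD103, stood at 188 and 257 CPM against 4.10 and 3.81 CPM. The exception was Nrp1, encoding neuropilin-1, with 44.4 and 48.8 CPM against 78.9 and 93.5 CPM in Vβ3 Foxp3-negative cells.

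At the threshold of the rule, Vβ3 cells with no Foxp3 UMI held 4.99 and 4.35 CPM of Il2ra, the 35 and 51 Vβ3 cells with exactly 1 Foxp3 UMI held 76.6 and 119 CPM, and those with 2 or more held 140.4 and 177 CPM. For Ctla4 the same 3 steps were 138 and 129, 419 and 804, and 890.0 and 1174 CPM. The cells just inside the threshold lay between the others, and for Ctla4 in mouse 1 they were nearer to the cells just outside it. Foxp3 itself stood at 517 and 531 CPM in the Vβ3 class and at 529 and 615 CPM in the other class, with means of 4.203 and 4.799 UMIs per cell against 4.07 and 4.72.

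Vβ3 Foxp3-positive cells differed from other Foxp3-positive cells in single genes of several lists. The effector Treg and Treg core lists each held calls in both directions. In the fit with the mouse as a block, 263 of 10562 tested genes were called, 2.49%, of which 154 were higher (1.46%) and 109 lower (1.03%) in Vβ3 cells. All genes tested had a median log2 fold change of 0.00. The test had 1 residual degree of freedom and a spread pooled entirely across genes (infinite prior degrees of freedom), so a gene's own variation between mice had no weight. A fit of 8 sums that included Foxp3-negative cells and had 3 residual degrees of freedom called 47 genes for the same contrast, all among the 263. The count fell to 8 without the mouse block, to 9 in DESeq2 and to 19 of 8636, 0.22%, when 8 V genes were separate classes and Vβ3 was set against the mean of the other 7. Of the 46 called genes that the naming rule covers, 6 were called in both of the last fits: Ctla4, Icos, Cxcr6, Gstp2, Gm20400 and Cd81. The p-values of the fit that called 263 genes rest on the spread pooled across genes. They do not measure how far each gene varies between hosts, and all come from these 2 hosts alone.

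Ctla4 and Icos, neighbouring genes on chromosome 1 that encode an inhibitory and a costimulatory receptor of the CD28 family, were both higher in Vβ3 cells. Ctla4 stood at 817 and 1113 CPM in Vβ3 cells of mouse 1 and mouse 2, against 561 and 648 CPM in other cells. The log2 fold change was 0.70 with SE 0.0497 and edgeR adjusted p = 1.32e-40. The call held in 12 of 13 alternatives, not in the fit without the block; a further alternative that kept only 8 and 6 Vβ3 cells called no gene and is not counted in this number. Icos had 743 and 829 CPM against 508 and 536 CPM, a log2 fold change of 0.62 (SE 0.0521), and was called in all 13. For both genes the lower Vβ3 value lay above the higher other value. Such absence of overlap, in either direction, was common: it held for 3525 of all 10562 tested genes and for 227 of the 263 called.

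Of 20 genes of the effector Treg list, 6 were called higher and 2 lower. Klrg1, an inhibitory lectin-like receptor of highly differentiated T cells, had 163 and 357 CPM in Vβ3 cells against 114 and 168 CPM in other cells, a log2 fold change of 0.90 (SE 0.0744), with a larger gap in mouse 2 and values of the classes that overlapped between mice. Klrg1 was called neither in DESeq2 nor with V genes as separate classes. Gzmb, the cytotoxic protease granzyme B, had 556 and 793 CPM against 429 and 467 CPM, a log2 fold change of 0.61. The transcription factors Maf and Batf (log2 0.30 and 0.22) and the calcium-binding protein gene S100a4 (0.28) were also called higher, Batf in only 1 alternative. Nt5e, which encodes the ectoenzyme CD73, and Tnfrsf9, the receptor 4-1BB, were lower, by -0.50 and -0.40. The list's median was 0.05.

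Of the 15 Treg core genes 3 were called higher, 4 lower and 8 not called, with a median log2 fold change of -0.03. The lower ones held 2 Ikaros family factors that bind with or beside Foxp3, Ikzf2 (Helios) and Ikzf4 (Eos). Ikzf2 had 1079 and 936 CPM in Vβ3 cells against 1282 and 1154 CPM in other cells, a log2 fold change of -0.25 (SE 0.0456), and Ikzf4 had 50.005 and 52.3 CPM against 65.9 and 78.2 CPM, a log2 fold change of -0.48 (SE 0.12). Both genes were lower in each mouse without overlap.

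Nrp1, a semaphorin co-receptor often used to mark Treg cells of thymic origin in mice, fell further. It had 44.4 and 48.8 CPM in Vβ3 cells against 75.4 and 74.5 CPM in other cells. The log2 fold change was -0.65 with SE 0.121 (edgeR adjusted p = 1.91e-05), called in 10 of 13 alternatives. Of 8 V genes Vβ3 had rank 7 from the highest in mouse 1 and rank 6 in mouse 2. Nrp1 was lower in TRBV12-2 cells of both mice, at 40.1 and 14.5 CPM, and in TRBV23 cells of mouse 2, at 42.0 CPM. Rln3, the peptide hormone relaxin-3, had 211 and 152 CPM against 270.2 and 219.7 CPM, a log2 fold change of -0.42. None of these 4 decreases was called in DESeq2 or with V genes as separate classes.

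Besides Ctla4, Penk and Tnfrsf4 were called higher, but neither was steady. Penk, which encodes the opioid precursor proenkephalin, had 452 and 292 CPM in Vβ3 cells against 199 and 384 CPM in other cells, so it was higher in mouse 1 and lower in mouse 2. Tnfrsf4, the costimulatory receptor OX40, had a log2 fold change of 0.15 and was called in 3 alternatives. Il2ra had 131 and 167 CPM against 138 and 204 CPM, a log2 fold change of -0.18 with SE 0.0805 (edgeR adjusted p = 0.333). The others that were not called, with log2 fold changes between -0.08 and 0.13, were Itgae, Tnfrsf18 (the receptor GITR), Izumo1r (folate receptor 4), Lrrc32 (GARP, which presents latent TGF-β), Entpd1 (the ectoenzyme CD39), Gpr83 and Capg.

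**Figure D2:**
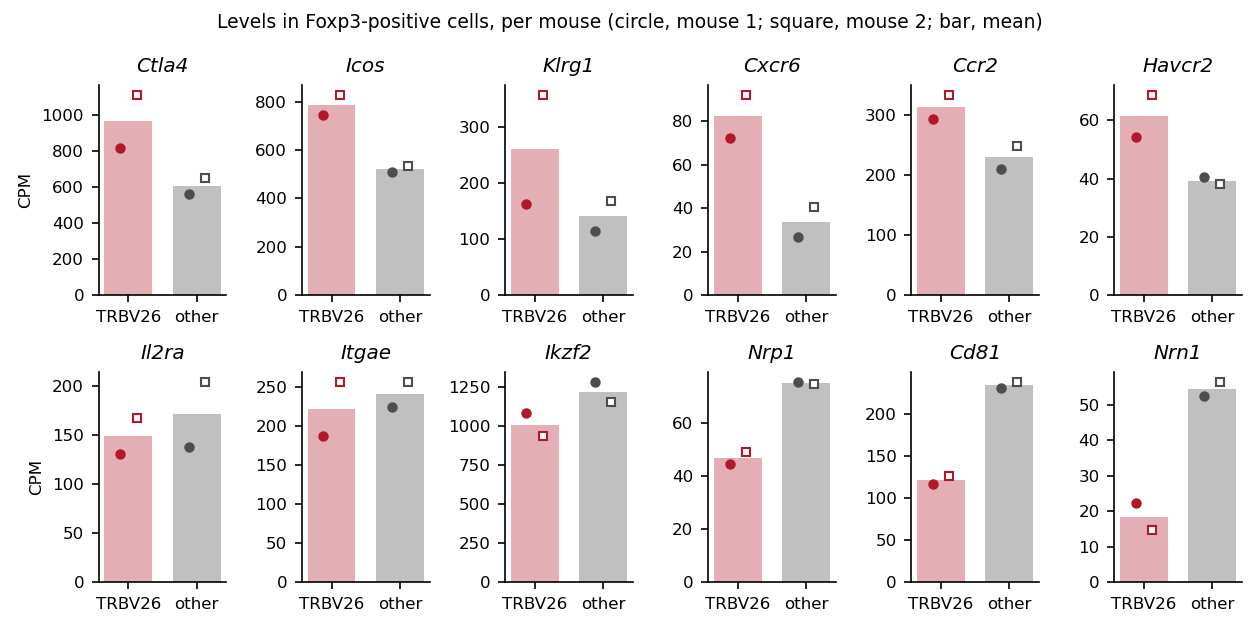
CPM of 12 genes in the summed Foxp3-positive cells of each mouse, Vβ3 (TRBV26, red, left) and other V genes (grey, right); circles are mouse 1, squares mouse 2, and bars the mean. Ctla4, Icos, Cxcr6, Ccr2 and Havcr2 are higher and Ikzf2, Nrp1, Cd81 and Nrn1 lower in Vβ3 cells of both mice, while Il2ra and Itgae overlap.

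Genes of type 1 helper and effector cells moved in both directions. Of 16 listed, 6 were called higher and 3 lower, with a median of 0.19. Cxcr6, a chemokine receptor of tissue-homing effector T cells, had 72.2 and 92.4 CPM in Vβ3 cells against 26.8 and 40.8 CPM in other cells, a log2 fold change of 1.30 with SE 0.124 (edgeR adjusted p = 2.45e-22), called in 12 of 13 alternatives. The lower Vβ3 value lay above the higher value of the other cells.

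Both chains of the IL-12 receptor were called higher. Il12rb2 had 28.5 and 29.2 CPM in Vβ3 cells against 12.3 and 14.6 CPM in other cells, a log2 fold change of 1.11 (SE 0.215), and Il12rb1 95.8 and 93.3 CPM against 62.7 and 65.1 CPM, a log2 fold change of 0.58. Gzmk, the protease granzyme K, had 103 and 85.9 CPM against 67.8 and 40.1 CPM, a log2 fold change of 0.88. The inflammatory chemokine gene Ccl4 was higher as well, while Ccl5 (log2 -0.43), Nkg7 (-0.21), a protein of cytotoxic granules, and Il18r1 (-0.67), the IL-18 receptor chain, were lower. With 1 cell per clonotype Ccl5 was at 0.03 (edgeR adjusted p = 0.94). Ifng, the type 1 cytokine interferon-γ, was not called, with 25.7 and 44.5 CPM against 33.3 and 26.4 CPM.

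Homing genes moved singly. Of 18 listed, 3 were called higher and 1 lower, with a median of -0.04. Among the higher ones, besides Cxcr6, was Ccr2, a receptor for inflammatory chemokines, with 293 and 334 CPM in Vβ3 cells against 211 and 249 CPM in other cells (log2 0.47, SE 0.0675). Ccr7, which directs T cells to the T cell zone, had 15.97 and 11.8 CPM against 22.4 and 25.2 CPM, a log2 fold change of -0.81.

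The naive and resting list went the other way, with 1 gene called higher, 3 lower and a median of -0.28 over 13 tested. Igfbp4, which encodes an insulin-like growth factor binding protein, was found with 2 and 4 UMIs in Vβ3 cells against 95 and 94 UMIs in other cells. Over both mice the ratio of its levels was 0.107 (exact 95% interval 0.0387 to 0.237, counting error only). With at least 2 Foxp3 UMIs per cell Igfbp4 was at a log2 of -1.12 (edgeR adjusted p = 0.583), against -3.16 with at least 1, and with V genes as separate classes it was at -2.06, not called in either. Klf2, a transcription factor that maintains quiescence and exit from lymphoid tissue, had 131 and 194 CPM against 190.5 and 253 CPM, a log2 fold change of -0.42 (SE 0.0765). Satb1, a chromatin organiser, was higher at 0.32.

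Of 22 proliferation genes 7 were called lower, none higher and 15 not called, 18 of the 22 had a log2 fold change below 0, and the median was -0.26. Mki67, the proliferation antigen Ki-67, had 219 and 128 CPM in Vβ3 cells against 286 and 194 CPM in other cells, a log2 fold change of -0.46 (SE 0.0755). Top2a, topoisomerase IIα, had 191 and 120.3 CPM against 268 and 158 CPM. For both genes mouse 1 lay above mouse 2 in each class, and the classes overlapped between mice. With 1 cell per clonotype 14 of the 22 were called lower and the median was -0.45. DESeq2 called neither Mki67 nor Top2a, and with V genes as separate classes none of the 22 was called lower. By V gene Mki67 in Vβ3 cells had rank 5 of 8 from the highest in mouse 1 and rank 4 in mouse 2. Among Foxp3-negative cells 18 of the 22 were called lower in Vβ3 cells, against 1008 of all 12290 tested genes. The list's median there was -0.46.

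Inhibitory receptor genes included 3 called higher of 11, Ctla4, Havcr2 and Lag3, and 1 called lower, the transcription factor gene Tox (log2 -0.30). Havcr2, which encodes TIM-3, had 54.2 and 68.9 CPM in Vβ3 cells against 40.5 and 38.1 CPM in other cells, a log2 fold change of 0.70 (SE 0.131). Lag3, an MHC class II-binding receptor, had 449 and 451 CPM against 431 and 343 CPM, a log2 fold change of 0.26, nearly all of it from mouse 2. Pdcd1, encoding PD-1, and Tigit were not called, at -0.01 and 0.01.

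Genes induced by receptor engagement did not rise together. Of 14 in the receptor signal list none was called higher and 2 were called lower, with a median of 0.11. Nr4a2, an orphan nuclear receptor induced by receptor signals, had 13.9 and 7.41 CPM in Vβ3 cells against 23.8 and 25.4 CPM in other cells, a log2 fold change of -1.28 (SE 0.25). It was called in 7 of 13 alternatives, and not with 1 cell per clonotype (log2 -0.72) or with V genes as separate classes (-0.55). DESeq2 gave it no adjusted p. Of 12 anergy genes 1 was higher (Lag3) and 2 lower, among them Nrn1, a membrane-anchored neurotrophic protein found in Treg and anergic T cells. Nrn1 had 22.2 and 14.8 CPM against 52.4 and 56.4 CPM, a log2 fold change of -1.60 (SE 0.173), called in 12 of 13 alternatives but not with V genes as separate classes.

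Targets and parts of the IL-2 pathway held no gene called higher and 2 of 14 called lower, Stat5b (log2 -0.37), its signal transducer, and the kinase gene Pim1 (-0.27), and the median was 0.00. Of 11 TNF receptor family genes Tnfrsf4 was higher and 2 were lower, Tnfrsf9 and Tnfrsf8, which encodes CD30. Tnfrsf8 was found with 2 and 9 UMIs in Vβ3 cells against 46 and 69 UMIs in other cells, a ratio over both mice of 0.322 (0.156 to 0.598). Its ligand gene Tnfsf8, a member of the follicular list, was higher, with 36.1 and 33.6 CPM against 23.3 and 15.9 CPM. The log2 fold change of Tnfsf8 was 0.89 (SE 0.186). Vβ20 Foxp3-positive cells had 72.8 and 26.6 CPM of it. Among Foxp3-negative cells Tnfsf8 was also called higher in Vβ3 cells, by a log2 of 0.86.

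The remaining lists had few calls. Of 14 follicular helper genes 2 were higher, Tnfsf8 and Sostdc1, and 1 lower, Tox. Among 13 interferon response genes Isg15 was higher (log2 0.39), among 15 apoptosis genes Bcl2a1d was higher (0.31), and among 14 glycolysis genes Ldha and Pkm were higher (0.27 and 0.18). None of the 6 tested Th17 genes was called.

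**Figure D3:**
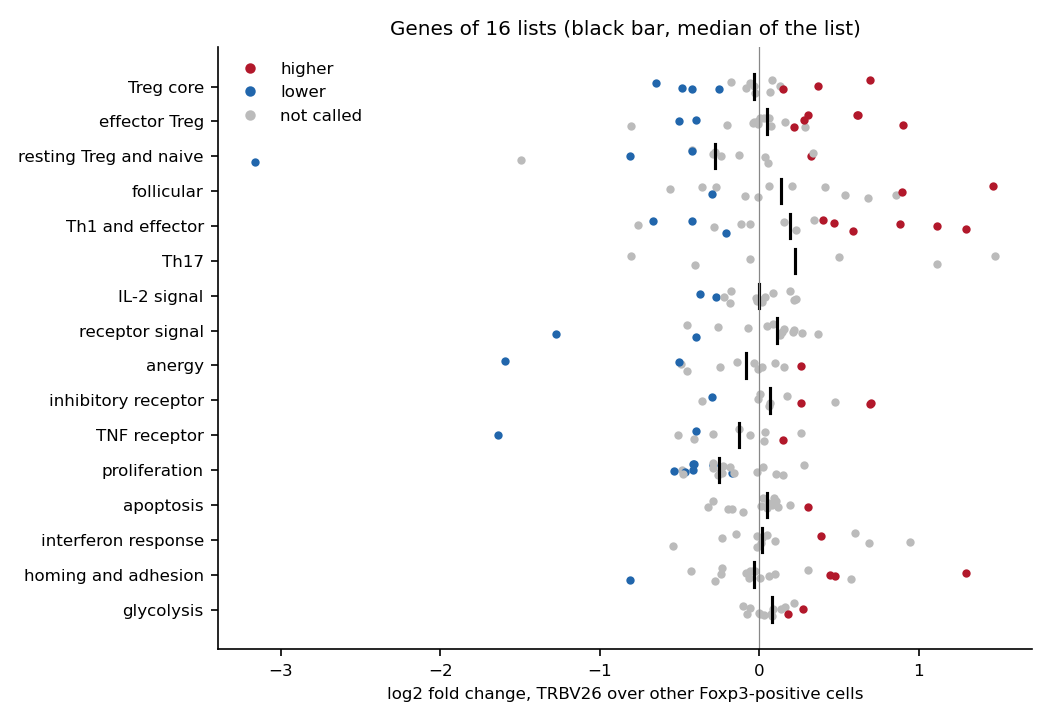
Log2 fold change of Vβ3 over other Foxp3-positive cells (x axis) for each tested gene of 16 T cell lists (rows), red where called higher, blue where called lower and grey otherwise; the black bar is the list's median. Medians lie between -0.28 (resting and naive) and 0.22 (Th17), and the proliferation list has 7 genes called lower and none higher.

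The largest increases were those of 2 genes that were also high in Vβ20 cells. Gm20400, an antisense transcript of unassigned function on chromosome 6 (chr6:142161493-142173796, plus strand, GRCm38), had 174 and 106 CPM in Vβ3 Foxp3-positive cells against 34.5 and 25.4 CPM in other Foxp3-positive cells, a log2 fold change of 2.23 (SE 0.11). Gstp2, a glutathione S-transferase gene of the pi class on chromosome 19 (chr19:4040285-4046023, minus strand), had 54.9 and 60.2 CPM against 14.9 and 14.0 CPM, a log2 fold change of 2.03 (SE 0.169). Both were called in all 13 alternatives. Gstp2 has a near-identical neighbour, Gstp1, so the split of reads between them is uncertain.

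Resolved by V gene, the other class was not uniform. Gm20400 stood at 137 and 123 CPM in Vβ20 (TRBV23) Foxp3-positive cells and at most 23.2 CPM in either mouse for each of the other 6 V genes with at least 30 Foxp3-positive cells per mouse. Gstp2 stood at 62.4 and 68.7 CPM in Vβ20 cells and at most 14.8 CPM in those 6. Cxcr6 followed a like order, with 62.4 and 88.3 CPM in Vβ20 cells, and Vβ3 was the highest of the 8 V genes in both mice for Cxcr6 and Ctla4. For Ctla4 the TRBV12-2 cells came next, with 789 and 1027 CPM, so Vβ3 lay at the top of a range rather than apart from it. From the highest, Vβ3 had rank 2 in mouse 1 and rank 1 in mouse 2 for Icos, and rank 2 in both for Ccr2. For Klrg1 it had rank 4 in mouse 1, below TRBV23, TRBV12-2 and TRBV12-1, and rank 1 in mouse 2. Vβ20 cells made up 83 and 87 of the other Foxp3-positive cells; without them 312 genes were called, 253 of the 263 among them.

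**Figure D4:**
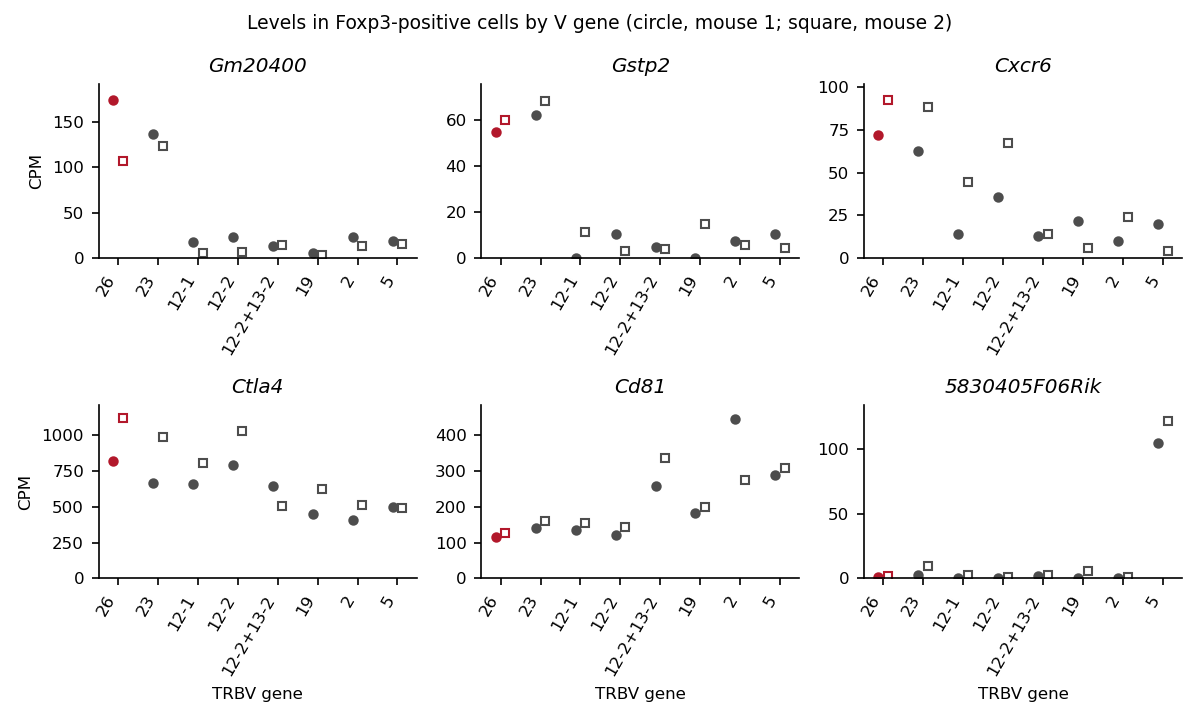
CPM of 6 genes in Foxp3-positive cells for each TRB V gene with at least 30 such cells in each mouse (x axis), in mouse 1 (circles) and mouse 2 (squares); Vβ3 (TRBV26) is red. Gm20400 and Gstp2 are high in TRBV26 and TRBV23, Cd81 is lower in TRBV26 than in TRBV2, TRBV5 and TRBV12-2+TRBV13-2, and 5830405F06Rik is high in TRBV5.

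The other large increases were Sostdc1, Tmem163, Tnf, Adam8, Metrnl, Gm20186, Cxcr6 and Il12rb2. Sostdc1, a secreted antagonist of BMP and Wnt signals, had 40.3 and 20.5 CPM in Vβ3 cells against 16.1 and 6.71 CPM in other cells. Its log2 fold change was 1.46 (SE 0.228), with mouse 1 above mouse 2 in both classes. Within the other class Vβ20 cells had 42.9 and 9.81 CPM of Sostdc1 and TRBV5 cells 31.5 and 4.27 CPM. Foxp3-negative Vβ3 cells had 376 and 293 CPM, against 176 and 165 CPM in Foxp3-negative other cells. Tmem163, a zinc transporter gene, had 20.8 and 24.4 CPM against 9.29 and 9.19 CPM, a log2 fold change of 1.33. Tnf, the inflammatory cytokine, had 37.5 and 90.2 CPM against 37.0 and 32.7 CPM, so its fold change of 0.98 came from mouse 2 alone. Adam8, a membrane metalloprotease, Metrnl, a secreted meteorin-like protein, and Gm20186, a long noncoding RNA, each lay between 0.95 and 0.99. These were higher in both mice. Sostdc1, Il12rb2 and Gm20186 were also called higher in Foxp3-negative Vβ3 cells than in Foxp3-negative other cells (log2 0.96, 0.64 and 1.04). Tmem163, Adam8 and Cxcr6 were called lower there (-0.42, -0.39 and -0.68), and Tnf and Metrnl were not called.

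Among the 10 largest decreases with a mean of at least 20 CPM in a class, Cd81 was called in all 13 alternatives. Nrn1 and Gm43305 were called in 12 and 9. The others had no adjusted p in DESeq2, so they could not reach 13. Cd81, a tetraspanin that organises membrane receptors, had 117 and 126 CPM in Vβ3 cells against 230.3 and 238 CPM in other cells, a log2 fold change of -0.92 with SE 0.0806 (edgeR adjusted p = 1.23e-26). By V gene Cd81 was lowest in Vβ3 in mouse 1 and mouse 2 alike, close to TRBV12-2 at 122 and 144 CPM, and the highest values were 443 CPM in TRBV2 cells of mouse 1 and 334 CPM in TRBV12-2+TRBV13-2 cells of mouse 2. Map2, a microtubule-associated protein, and Adamts6, a secreted metalloprotease, had log2 fold changes of -1.32 and -1.11. Cybb, the catalytic chain of a phagocyte NADPH oxidase, had 11.1 and 10.5 CPM against 21.7 and 21.4 CPM, and the kinesin genes Kif4 and Kif13a were lower by -1.07 and -0.93.

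A pair of the largest decreases lay at or beside receptor loci. 5830405F06Rik, a long noncoding RNA gene (chr6:41055883-41063102, plus strand, GRCm38), spans the segments Trbv4 and Trbv5, so its reads cannot be told apart from transcripts of those segments. It had 1.39 and 1.74 CPM in Vβ3 cells against 24.0 and 17.2 CPM in other cells, but 105 and 122 CPM in TRBV5 cells and at most 9.81 CPM in the other V genes. With V genes as separate classes it was not called. Gm43305 (chr14:54292443-54297456, minus strand) lies beyond Trac with no receptor segment overlapping it, and had 30.6 and 23.5 CPM against 82.9 and 35.9 CPM.

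Transcripts of other cell types were low in both classes, apart from class II and immunoglobulin genes. Over 9 B cell markers the summed level was 569 and 518 CPM in Vβ3 cells against 542 and 628 CPM in other cells, with Ms4a1, Pax5 and Ebf1 at 0 in every sum. Over 12 myeloid markers it was 188 and 223 CPM against 218 and 230 CPM, with none at 0 in every sum. Over 9 dendritic cell and class II markers the sums were 783 and 786 CPM against 730 and 722 CPM, with Flt3, Siglech and Xcr1 at 0, and over 10 CD8 T and NK markers 27.1 and 34.4 CPM against 34.7 and 43.8 CPM, with Cd8a, Ncr1, Klra4 and Klra8 at 0. Over 6 γδ T cell markers they were 0.695 and 0.872 CPM against 1.58 and 1.46 CPM, with 4 at 0. None of the 16 tested genes of these lists was called, and their part in the results was not tested. The erythroid and platelet sum was 4.17 and 7.41 CPM against 6.66 and 220.1 CPM, and 1448 of the 1493 haemoglobin UMIs in other cells of mouse 2 lay in 1 cell. Hbb-bs, with 6 and 9 UMIs against 19 and 1053 UMIs, was called lower. Genes of the stress response to tissue dissociation summed to 2533 and 2626 CPM against 2670.4 and 2660.05 CPM.

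Whether the differences were the same in Foxp3-positive and Foxp3-negative cells was tested in a fit of 8 sums, as the difference between Vβ3 and other cells in Foxp3-positive cells less that in Foxp3-negative cells. This difference of differences was called for 306 of 12290 genes, 2.49%, 172 above 0 and 134 below. In Foxp3-negative cells alone 15.4% of genes were called between Vβ3 and other cells.

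For some genes the direction differed between Foxp3-positive and Foxp3-negative cells. Cxcr6 was higher in Vβ3 cells among Foxp3-positive cells, but in Foxp3-negative cells it had 88.5 and 94.2 CPM in Vβ3 cells against 127 and 168 CPM in other cells; the difference of differences was 1.98 (edgeR adjusted p = 1.21e-05). Ccr2 was lower in Foxp3-negative Vβ3 cells, with 35.5 and 41.8 CPM against 59.3 and 75.2 CPM, a difference of 1.27. Havcr2 likewise had 18.8 and 15.5 CPM against 34.3 and 32.4 CPM there, a difference of 1.67, and Lag3 a difference of 0.74. In the fit of 8 sums all 4 were called lower in Foxp3-negative Vβ3 cells, and Cxcr6, Ccr2 and Havcr2 were called higher in Foxp3-positive ones; Lag3 was not (log2 0.25, edgeR adjusted p = 0.264), and its call above comes from the fit of 4 sums.

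Icos, Ctla4, Gstp2 and Gm20400 were called higher in Vβ3 cells on both sides of the Foxp3 threshold. Icos was higher in Vβ3 cells by a log2 of 0.61 among Foxp3-negative cells, and its difference of differences was 0.01 (adjusted p = 0.986). That of Ctla4 was 0.18 (adjusted p = 0.548) and that of Gstp2 0.63 (adjusted p = 0.177). A p above the threshold does not show that the 2 differences are equal. For Gm20400 it was called, with a larger fold among Foxp3-positive cells by 0.89 (adjusted p = 0.0299).

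For Cd81, Nrp1 and Ikzf2 the difference of differences was called below 0. In the fit of 8 sums Cd81 and Nrp1 were called lower in Foxp3-positive Vβ3 cells, while Ikzf2 (log2 -0.25, edgeR adjusted p = 0.159) was called so in the fit of 4 sums alone. In Foxp3-negative cells Nrp1 had 78.9 and 93.5 CPM in Vβ3 cells against 71.4 and 90.7 CPM in other cells, and the difference of differences was -0.76 (adjusted p = 0.0128). It was -0.74 for Cd81 (adjusted p = 0.0178) and -0.51 for Ikzf2 (adjusted p = 0.00834), which was called higher in Foxp3-negative Vβ3 cells, at a log2 of 0.26. Izumo1r, not called between the Foxp3-positive classes, had 803 and 915 CPM in Foxp3-negative Vβ3 cells against 393 and 412 CPM, which gave a difference of -1.13.

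Treg markers went both ways between Foxp3-negative Vβ3 cells and Foxp3-negative other cells. Of the 15 Treg core genes 7 were called lower and 5 higher in Vβ3 cells, against 1008 and 886 of all 12290 tested genes. The 5 higher ones were Izumo1r, Gpr83, Ctla4, Tnfrsf4 and Ikzf2. Il2ra, Itgae, Rln3, Capg and Entpd1 were among the lower ones, and their differences of differences were 0.98, 1.13, 1.10, 0.78 and 0.59. Il2ra stood at 4.99 and 4.35 CPM in Foxp3-negative Vβ3 cells against 10.1 and 10.8 CPM in Foxp3-negative other cells, and Itgae at 4.10 and 3.81 against 7.47 and 10.9 CPM. The share of cells with a Foxp3 UMI was also higher in the other class, and the part of Treg cells in which no Foxp3 UMI was captured in these values was not tested.

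**Figure D5:**
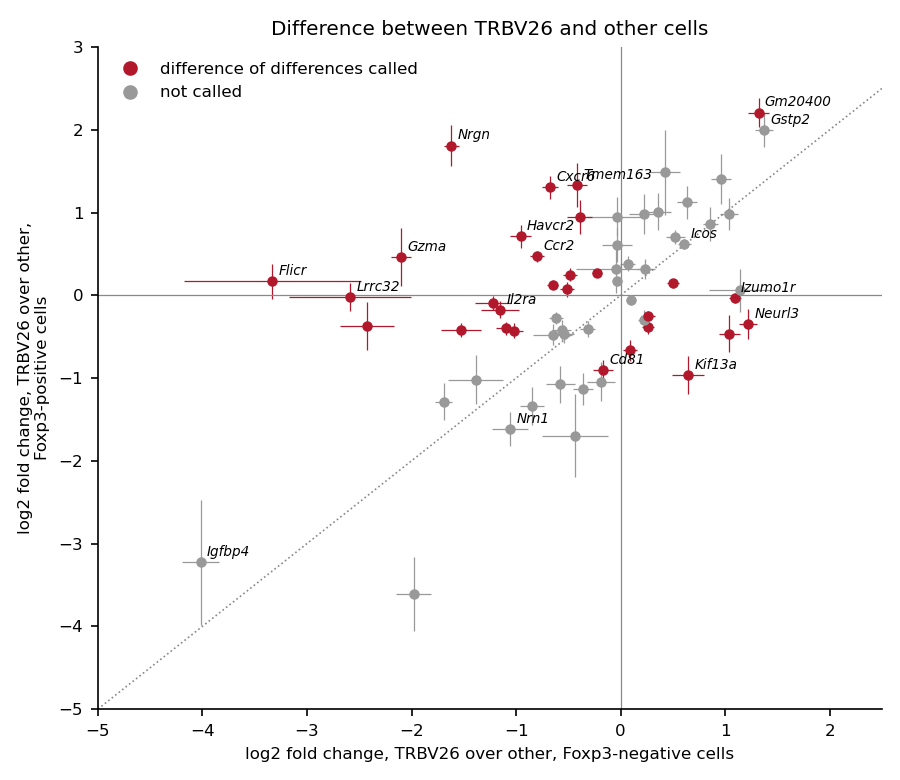
Log2 fold change of Vβ3 over other cells among Foxp3-positive cells (y axis) against that among Foxp3-negative cells (x axis), from the fit of 8 sums, for the named genes reported here, Hbb-bs and Hbb-bt left out; bars are standard errors, the dotted line marks equal values, and red marks genes whose difference of differences was called. Cxcr6, Ccr2 and Havcr2 lie at upper left, above 0 on the y axis and below 0 on the x axis, and Icos lies near the line at upper right.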

How the data were processed

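The authors deposited UMI counts per gene and cell barcode and, for each receptor contig, its V and J genes, CDR3 and UMI counts, made with Cell Ranger 7.0.1 on mm10 (GRCm38) per the submitters' processing notes. Libraries held 70092822 and 75940181 UMIs. Median genes per kept cell were 2302 and 2501. No doublet caller was run, and cells with more than 1 TRB chain were left out.

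Counts were summed per mouse and class and tested with edgeR 4.0.16 (TMM, filterByExpr, quasi-likelihood F test, mouse as block) and p-values were adjusted by Benjamini-Hochberg across every gene tested. Calls have an adjusted p under 0.05. Receptor V, D and J segments and Foxp3 were left out of the tests. Both classes of a mouse come from 1 library of that mouse, which is the source of the pairing. The members, gene lists and tests were chosen with earlier results of these data known. Named genes are the 10 largest called changes each way with a mean of 20 CPM or more in a class and one direction across mice, the Treg core list, and the 2 members with the smallest p of each other T cell list, and for the difference of differences the 5 largest each way. Further list members named in the text were chosen after their values were seen. Values of a few list members are not reported here. Locations come from GENCODE M21. Alternatives used DESeq2 1.42.0, other filters and other sets of cells. The script was tested on simulated counts. Python 3.11.15, numpy 2.4.6 and pandas 2.3.3 made the sums.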

Additional observations from a re-analysis of the deposited data

Results flagged for a closer look

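The difference between Vβ3 and other cells was not the same in Foxp3-positive and Foxp3-negative cells for 306 genes, by a test of the difference of differences in edgeR (adjusted p under 0.05). The 5 lowest values were those of Hbb-bt (-6.93), Hbb-bs (-6.30), Kif13a (-1.61), Neurl3 (-1.57), a ubiquitin ligase gene, and Plcb4 (-1.50), a phospholipase C gene. The haemoglobin genes Hbb-bt and Hbb-bs had 319 and 1053 UMIs in the other Foxp3-positive cells of mouse 2, nearly all from 1 cell, and 214 and 604 UMIs in its Foxp3-negative Vβ3 cells. Neurl3 had 15.3 and 23.1 CPM in Vβ3 against 24.5 and 26.3 CPM in other Foxp3-positive cells, and 38.7 and 54.1 CPM in Vβ3 against 17.9 and 21.8 CPM in other Foxp3-negative cells.

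The 5 highest values were those of Flicr (3.50), Nrgn (3.43), Gzma (2.57), Lrrc32 (2.56) and the noncoding RNA gene Gm30211 (2.05). Flicr overlaps Foxp3 on chromosome X, so its reads cannot be told apart from those of the gene that chose the cells. It had 0 and 1 UMIs in Foxp3-negative Vβ3 cells against 11 and 14 UMIs in Foxp3-negative other cells, and Lrrc32 had 1 and 2 against 14 and 25, so both fitted values depend on the prior count. Nrgn, a calmodulin-binding protein gene, had 13.2 and 24.4 CPM in Vβ3 against 5.61 and 5.83 CPM in other Foxp3-positive cells, and 38.6 and 42.1 CPM in Vβ3 against 112 and 137 CPM in other Foxp3-negative cells. Gzma, granzyme A, was not called between Foxp3-positive classes.

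Further genes named in the report had a difference of differences that was called. Below 0 were Izumo1r (-1.13), Nrp1 (-0.76), Cd81 (-0.74), Stat5b (-0.64), Ikzf2 (-0.51) and Tnfrsf4 (-0.36). Above 0 were Ldha (0.49), Entpd1 (0.59), Ccl5 (0.59), Tnfrsf9 (0.70), Lag3 (0.74), Capg (0.78), Gm20400 (0.89), Il2ra (0.98), Rln3 (1.10), Itgae (1.13), Ccr2 (1.27), Adam8 (1.33), Havcr2 (1.67), Tmem163 (1.75) and Cxcr6 (1.98).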

How the results depend on the processing

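The count of called genes between Vβ3 and other Foxp3-positive cells, 263, was 8 with no replicate block, 9 in DESeq2, 155 without clonotypes of over 5 cells, 0 when cells with 2 or more proliferation UMIs were left out, 172 without Vβ3 clonotypes of over 10 cells and 19 with V genes as separate classes; the last 2 were chosen after seeing the data. The count of 0 comes from edgeR on 8 and 6 Vβ3 cells, where 191 of 1986 genes had an unadjusted p under 0.05. The other alternatives gave 176 to 312. The difference of differences, 306 genes, was 14 with no replicate block, 134 with 1 cell per clonotype and 196 in DESeq2. The share of cells with a Foxp3 UMI differed by -8.97 ± 2.15 percentage points (SD, n = 2; Vβ3 minus other), by -19.8 as a share of clonotypes, and between -10.5 and -7.44 with either mouse left out.

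Of the called genes, Ccl5 turned to a log2 of 0.0289 with 1 cell per clonotype. Without cells that had a cell cycle UMI, an alternative added after seeing the data, Penk turned to -0.0470 and Tnfrsf4 to -0.00266. With either mouse left out, which gives no test, Penk was between -0.40 and 1.18. Between mice 9 called named genes differed by over 1.5 times in fold: Nrn1, 5830405F06Rik, Tnf (0.02 in mouse 1, 1.44 in mouse 2), Gm43305, Penk, Nr4a2, Metrnl, Kif13a and Tnfrsf8. Of 46 called named genes 39 were called with 1 cell per clonotype, 36 at matched Foxp3 UMIs and depth, 7 of the 30 with an adjusted p in DESeq2, and 11 of the 45 tested with V genes as separate classes. Depth limits genes of a few UMIs per sum, and counting intervals do not cover the spread between hosts.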

Other observations

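Several genes outside the naming rule were called in the fit with V genes as separate classes, and were picked out after their values were seen. Csf1, the macrophage growth factor M-CSF, had 158 and 199 CPM in Vβ3 Foxp3-positive cells against 116 and 103 CPM in other Foxp3-positive cells, and DESeq2 also called it. Mmp9, a secreted gelatinase, had 65.3 and 53.6 CPM against 28.7 and 33.5 CPM. F2rl2, a protease-activated receptor gene, had 16.7 and 20.1 CPM against 4.73 and 5.11 CPM, and Ermn 11.8 and 21.4 CPM against 4.38 and 5.69 CPM. Sytl3 had 45.1 and 52.3 CPM against 29.4 and 28.9 CPM. Trbc1, a constant segment of the TRB locus whose use follows from the J gene, had 84.0 and 102 CPM against 62.9 and 64.6 CPM. All 6 were higher in both mice, with no overlap between the classes, which also held for 3525 of all 10562 tested genes in either direction. Glrx, a glutaredoxin gene, was called in DESeq2 and not in the fit by V gene, with 957 and 1061 CPM against 709 and 730 CPM.

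Cells with 2 productive α chains made up 12.99% (8.42 to 18.9) and 17.3% (12.9 to 22.5) of Vβ3 Foxp3-positive cells, against 15.9% and 17.5% of other Foxp3-positive cells, with overlapping intervals in both mice. Vβ3 cells made up 19.3% (16.8 to 22.0) and 22.2% (19.8 to 24.7) of all Foxp3-positive cells, against 37.6% and 32.9% of Foxp3-negative cells.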
